A study of Mus musculus with 36 samples.

Results

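MicroRNA levels in epididymal white adipose tissue (eWAT), the fat depot beside the epididymis and testis, were compared between the HF and LF groups over 10 small RNA libraries: HF replicates 1 to 6 and LF replicates 2, 3, 5 and 6. These are 10 of the 36 libraries of the series, which covers eWAT and liver in 3 groups (HFLF, HF and LF) of 6 libraries each. LF replicates 1 and 4 were left out because their counts of the epithelial miR-200 family lay far above those of all other eWAT libraries. The libraries were thus selected on a measured value, the summed counts of that family. The family is described with no test result, although its 7 tested members count among the totals over all miRNAs. All libraries come from wild-type C57BL/6 males of an F1 generation, taken at 24 weeks of age after chow to 6 weeks and a specified diet for 18 weeks. The diet tags read HFLFD for the HFLF group, HFD for HF and LFD for LF, yet LFD is the diet named by the treatment text of each library. The labels therefore leave unsaid whether a group name is the diet of the mouse or of a parent, and the groups are called by name only. No transgene or Cre allele is given for any group. Beyond the titles nothing says that replicates are separate mice, so the p-values measure the spread between these libraries, which may be technical.

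A microRNA (miRNA) is cut from a hairpin transcript into a short mature strand from its 5p or 3p arm. Bases 2 to 8 of that strand, the seed, do most of the pairing with target messenger RNAs, and miRNAs that share a seed form a family. Many hairpins sit in introns or non-coding transcripts and are often made together with their host gene. White fat holds adipocytes, endothelium, macrophages and other leukocytes, fibroblast-like stroma and vascular smooth muscle, and a miRNA that belongs to one of these cells can stand for it in a bulk library. Fewer cells of a type and less RNA per cell cannot be told apart in such libraries.

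The mature sequences below belong to miRNAs named in the results, with the seed in capitals, as RefSeq gives them for build GRCm38.p6. The first 5 share the seed AUUGCAC and all had HF minus LF estimates below 0, given further on.
miR-32-5p: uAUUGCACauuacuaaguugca
miR-92a-3p: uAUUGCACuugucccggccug
miR-25-3p: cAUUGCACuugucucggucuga
miR-92b-3p: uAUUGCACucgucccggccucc
miR-363-3p: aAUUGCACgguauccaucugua
The next 4 are the 5p and 3p strands of let-7e and let-7f, shown because their 3p strands were among the leading miRNAs while the 5p strands carry the let-7 seed.
let-7e-5p: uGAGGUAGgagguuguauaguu
let-7e-3p: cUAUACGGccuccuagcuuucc
let-7f-5p: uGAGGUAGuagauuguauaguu
let-7f-1-3p: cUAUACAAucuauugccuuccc
The remaining leading miRNAs with the most counts, and the pair that set HF replicate 1 apart, follow.
miR-434-3p: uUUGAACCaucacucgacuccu
miR-3968: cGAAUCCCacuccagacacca
miR-6240: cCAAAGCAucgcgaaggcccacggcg
miR-212-5p: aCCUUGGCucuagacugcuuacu
miR-196a-5p: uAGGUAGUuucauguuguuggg
miR-196b-5p: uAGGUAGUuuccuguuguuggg
The last pair shows the miR-200 family, whose counts decided which LF libraries were kept.
miR-200b-3p: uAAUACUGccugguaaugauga
miR-200a-3p: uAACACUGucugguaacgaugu
Of the 604 miRNAs tested, 513 had an entry in that RefSeq table.

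The 10 libraries held 9066683 to 14803991 counts in HF and 11512416 to 15090599 counts in LF, and 604 of 1966 mature miRNAs passed the filter on low counts. A count of 0 allows a level of up to 0.331 CPM in the shallowest library, HF replicate 4. Levels are given in CPM, the count of a miRNA scaled to a common library size, after normalisation over these 10 libraries, unless another set is named, and differences are HF minus LF on the log2 scale. The summed level of the miR-200 list, scaled over all 18 eWAT libraries, was 16656 and 21371 CPM in the left-out LF replicates 1 and 4. The highest kept library, LF replicate 6, held 290.3 CPM, and the HF libraries held 86.3 to 153 CPM. The summed adipocyte list of the left-out libraries lay within the range of the 10 kept libraries. On the same scale that list (miR-103, miR-378, miR-26, miR-30 and others, 22 members) summed to 183974 to 224172 CPM in HF, against 192933 and 205292 CPM in LF replicates 1 and 4 and 204447 to 212443 CPM in the kept LF libraries. Its members were not all alike. Scaled over the 12 HF and LF libraries, miR-26a-5p held 77927 and 80042 CPM in LF replicates 1 and 4. The kept libraries held 66116 to 88304 CPM of it. For miR-378a-3p the left-out libraries held 1776 and 2520 CPM, below all kept libraries (2848 to 5099 CPM).

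**Figure D1:**
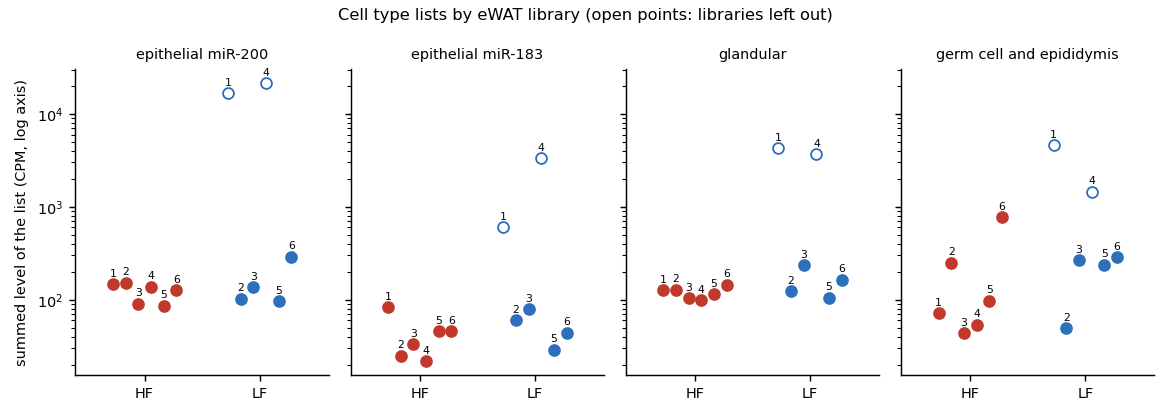
Summed level (CPM over the 18 eWAT libraries, log axis) of 4 cell type lists in each HF and LF library; numbers are replicate numbers and open points are the libraries left out. LF replicates 1 and 4 lie far above every other point in the miR-200 panel, and HF replicate 6 is the highest kept library in the germ cell and epididymis panel.

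No miRNA differed between HF and LF eWAT at an adjusted p under 0.05 in edgeR's quasi-likelihood test (0 of 604, 0%). The smallest adjusted p was 0.998. At an unadjusted p under 0.05 there were 9 miRNAs (1.49%), of which 3 lay higher in HF (0.497%) and 6 lower (0.993%). With no difference at all, a share of about 0.05 of the tests would fall there, more than was seen. The 9 are therefore described below as the leading miRNAs by p only. DESeq2 called 0 and had 8 under an unadjusted 0.05, and limma voom called 0 and had 9. Of all 604 miRNAs, 303 had a difference above 0 and 301 below it, with a median of 0.00. One miRNA, miR-32-5p, had no overlap between the groups (0.166% of those tested), and no miRNA lay wholly higher in HF (0%).

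**Figure D2:**
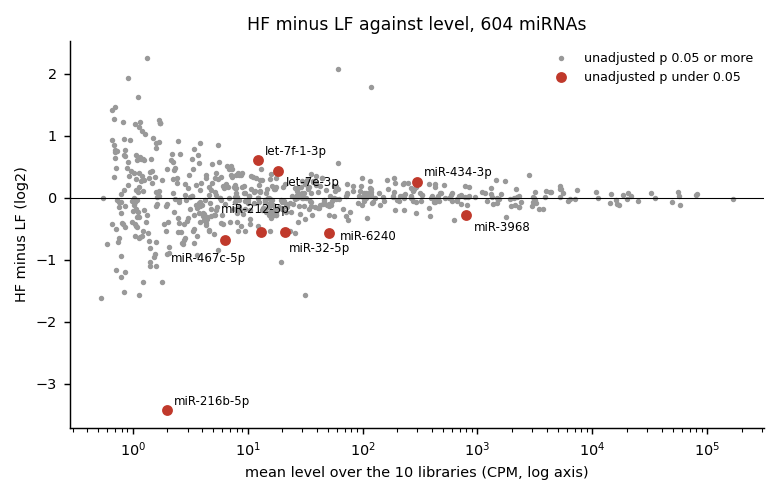
HF minus LF difference (log2) against mean level over the 10 libraries (CPM, log axis) for 604 miRNAs, with the 9 under an unadjusted p of 0.05 in red. The points fan out towards low levels and lie close to 0 above 1000 CPM.

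The width of the 95% intervals sets what these libraries could show. The interval lay wholly within a 2-fold difference in either direction for 324 of 604 miRNAs (53.6%). Among the 68 miRNAs at 1000 CPM and over this held for 65 (95.6%), and the median half-width was 0.24 on the log2 scale. Among the 90 miRNAs between 100 and 1000 CPM it held for 85 (94.4%), with a median half-width of 0.29. Between 10 and 100 CPM it held for 137 of 168 (81.5%), and under 10 CPM for 37 of 278 (13.3%), where the median half-width was 1.5. For abundant miRNAs a 2-fold difference in either direction thus lay outside nearly all intervals, and for rare ones it did not.

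The 6 miRNAs lower in HF at an unadjusted p under 0.05 began with miR-216b-5p and miR-32-5p. miR-32-5p, whose hairpin lies in an intron of Tmem245 (chr4:56895229-56895298), held 23.1, 21.6, 13.1, 15.1, 20.1 and 15.04 CPM in HF replicates 1 to 6, against 27.98, 23.8, 23.7 and 29.98 CPM in LF replicates 2, 3, 5 and 6. Every HF library lay below every LF library, by a narrow margin between HF replicate 1 and LF replicate 5. The difference was -0.55 ± 0.21 (SE), with a 95% interval of -0.99 to -0.11 and an unadjusted p = 0.0177 that became 0.998 after adjustment by edgeR. With 1 library left out at a time it ran from -0.63 to -0.47.

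miR-6240, at chr5:114851948-114852064 outside annotated genes, held 27.8 to 54.9 CPM (median 43.1) in the HF libraries, against 79.6, 39.8, 66.9 and 66.5 CPM in LF replicates 2, 3, 5 and 6. LF replicate 3 lay inside the HF range, and the other 3 LF libraries above all HF libraries. Its difference was -0.57 ± 0.22 (SE), with an interval of -1.03 to -0.11 (unadjusted p = 0.0195 by edgeR). miR-3968, the most abundant of the 6, held 616 to 809 CPM (median 751) in the HF libraries, against 760.3, 1103, 918 and 785 CPM in LF replicates 2, 3, 5 and 6, with the highest level in LF replicate 3. Its difference of -0.27 ± 0.12 (SE) became -0.13 without that library. miR-467c-5p, from the rodent cluster in the Sfmbt2 gene, held 2.79 to 6.51 CPM (median 5.56) in the HF libraries, against 9.97, 6.21, 7.44 and 9.21 CPM in LF replicates 2, 3, 5 and 6, and its difference was -0.69 ± 0.30 (SE).

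miR-212-5p comes from the hairpin pair of miR-132 and miR-212 (chr11:75173388-75173747), which in neurons responds to the transcription factor CREB. It held 8.60 to 13.3 CPM (median 11.2) in the HF libraries, against 22.6, 15.7, 12.8 and 12.9 CPM in LF replicates 2, 3, 5 and 6, highest in LF replicate 2, and its difference of -0.54 ± 0.23 (SE) became -0.31 without that library. All 4 strands of the pair had a difference below 0, with a median of -0.47. They were -0.53 for miR-212-3p, -0.42 for miR-132-5p and -0.11 for miR-132-3p, the most abundant strand at 95.1 ± 18.7 CPM in HF and 103 ± 14.99 CPM in LF (SD, n = 6 and 4). Without LF replicate 2 they were -0.32 for miR-212-3p, -0.13 for miR-132-5p and -0.01 for miR-132-3p, so that library held much of the difference of all 4. The strands are cut from neighbouring hairpins and are not independent of each other. Over all miRNAs 301 of 604 lay below 0. The neighbouring miR-191 and miR-425 also had 0 of 4 strands above 0 (median -0.03), and a let-7 cluster on chromosome 13 had 5 of 5 (median 0.1).

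miR-216b-5p had the largest difference of the 604 and the smallest p, and 1 library carried it. The HF libraries held 0 to 0.958 CPM, against 14.3 CPM in LF replicate 3 and 0.415 to 1.80 CPM in the other LF libraries. The estimate was -3.42 ± 1.11 (SE) with that library and -1.42 without it. In HF replicates 4 and 5 it had no count.

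The 3 miRNAs higher in HF at an unadjusted p under 0.05 were let-7f-1-3p, miR-434-3p and let-7e-3p. let-7f-1-3p, the minor strand of a let-7 hairpin inside the non-coding gene 6720427I07Rik (chr13:48537829-48537917), held 11.3 to 16.1 CPM (median 14.8) in the HF libraries, against 10.6, 14, 7.21 and 5.47 CPM in LF replicates 2, 3, 5 and 6. LF replicate 3 lay within the HF range and the other 3 LF libraries below it. The difference was 0.61 ± 0.27 (SE), with an interval of 0.03 to 1.19 (unadjusted p = 0.0419 by edgeR). let-7e-3p, from an intron of Spaca6 (chr17:17830352-17830444), held 15.6 to 24.7 CPM (median 20.7) in the HF libraries, against 12.7, 15.8, 15.8 and 17.02 CPM in LF replicates 2, 3, 5 and 6, with HF replicate 4 inside the LF range and a difference of 0.43 ± 0.19 (SE). miR-434-3p, cut from the strand opposite the imprinted gene Rtl1 (chr12:109594506-109594599), was the most abundant of the 3 and held 269 to 369 CPM (median 319) in the HF libraries, against 268, 234, 306 and 252 CPM in LF replicates 2, 3, 5 and 6. Its difference was 0.26 ± 0.12 (SE), with an interval of 0.01 to 0.52, and HF replicates 3 and 6 lay within the LF range. With 1 library left out at a time let-7f-1-3p ran from 0.44 (without LF replicate 6) to 0.89 (without LF replicate 3). let-7e-3p ran from 0.37 (without HF replicate 6) to 0.50 and miR-434-3p from 0.22 (without HF replicate 5) to 0.36. At these low ends the unadjusted p by edgeR was 0.117, 0.0896 and 0.065 in the same order.

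**Figure D3:**
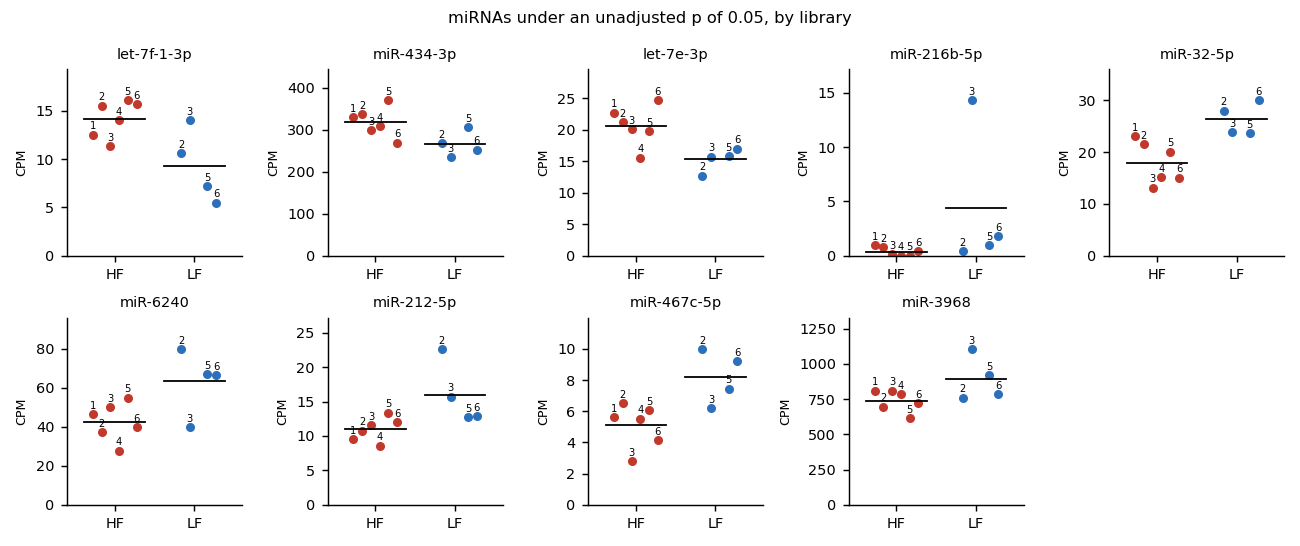
Level (CPM) in each HF and LF library of the 9 miRNAs under an unadjusted p of 0.05; points carry replicate numbers and bars are group means. Only in the miR-32-5p panel do the groups not overlap, and in the miR-216b-5p panel LF replicate 3 alone sets the LF mean.

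The next smallest p-values belonged to miR-676-3p (0.22), miR-10b-3p (0.29), miR-1981-5p (0.27), miR-190a-5p (0.35), miR-3057-5p (0.85) and miR-196b-5p (2.08) on the higher side. On the lower side they belonged to miR-203b-3p (-0.36), miR-92a-3p (-0.18), miR-1247-5p (-0.53) and miR-331-5p (-0.92), all as HF minus LF on the log2 scale. Their unadjusted p-values ran from 0.0647 to 0.0842. Each of these miRNAs had at least 1 HF library inside the LF range, and single libraries moved several of them. Without LF replicate 5, miR-3057-5p was 1.48, miR-331-5p -0.54 and miR-1981-5p 0.40. Without LF replicate 3, miR-1247-5p was -0.29.

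The 5 tested miRNAs with the seed AUUGCAC, printed above, all had a difference below 0, with a median of -0.20. They were set side by side after their values were seen. Over all miRNAs 301 of 604 lay below 0. Other seed families also lay wholly on a single side, such as GUAAACA with 0 of 4 above 0 and CCCUGAG with 3 of 3. These counts cover only miRNAs with an entry in the RefSeq table, so a family can hold further tested members. The GUAAACA count holds miR-30a-5p, miR-30c-5p, miR-30e-5p and miR-384-5p, and not miR-30d-5p. miR-92a-3p, made from the miR-17-92 host transcript and a second cluster on the X chromosome, held 3181 to 3437 CPM (median 3207) in the HF libraries, against 4169, 3927, 3428 and 3292 CPM in LF replicates 2, 3, 5 and 6. LF replicates 2 and 3 lay above all HF libraries, and LF replicates 5 and 6 within the HF range. The difference was -0.18 ± 0.09 (SE), with an interval of -0.37 to 0.02, and became -0.10 without LF replicate 2. miR-25-3p, whose hairpin lies within the cell cycle gene Mcm7 (chr5:138165321-138165404), averaged 1888 ± 233 CPM in HF and 2072 ± 165 CPM in LF (SD, n = 6 and 4), a difference of -0.13 ± 0.11 (SE). miR-92b-3p (-0.20 ± 0.30 (SE)) and miR-363-3p (-0.41 ± 0.53 (SE)) had far lower levels, 7.90 to 13.8 and 1.63 to 5.63 CPM in HF against 5.38 to 16.4 and 1.29 to 12.05 CPM in LF. Their intervals were -0.83 to 0.44 and -1.55 to 0.74. Leaving out 1 LF library turned the sign of both, to 0.04 for miR-92b-3p without LF replicate 6 and to 0.49 for miR-363-3p without LF replicate 2.

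Among the 11 strands of the clusters miR-17-92 and miR-106b-25, which accompany cell proliferation, 2 of 11 had a difference above 0 and the median was -0.14, beside 303 of 604 and 0.00 over all miRNAs. The summed level of the list was 6823 to 7934 CPM in HF and 7603 to 8349 CPM in LF. The cell cycle restraining families miR-15, miR-16 and miR-322 had 8 of 13 above 0 and a median of 0.02. No strand of either list had an unadjusted p under 0.05.

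The let-7 family, whose members restrain Lin28, Ras and Igf pathway messages, had the largest summed level of the lists in these libraries. Its 9 measured 5p strands summed to 267865, 260314, 284315, 284990, 286163 and 325754 CPM in HF replicates 1 to 6, against 289776, 288396, 286527 and 233998 CPM in LF replicates 2, 3, 5 and 6. The highest library was HF replicate 6 and the lowest LF replicate 6, and the groups overlapped. The summed level differed by 0.05 ± 0.09 (SE, log2). Without LF replicate 6 the difference was 0.00. Of the 9 strands, 8 had a difference above 0, with a median of 0.04, and none had an unadjusted p under 0.05.

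let-7f-5p, the most abundant let-7, averaged 83277 ± 5789 CPM in HF and 80138 ± 3352 CPM in LF (SD, n = 6 and 4). Its interval of -0.12 to 0.23 was among the narrower of the family. let-7e-5p had the largest difference of the 9, 0.19 ± 0.11 (SE), with an interval of -0.04 to 0.42 and an unadjusted p = 0.101, and was 0.12 without LF replicate 6. It held 4878 to 6377 CPM (median 5483) in the HF libraries, against 5340, 4709, 5323 and 4028 CPM in LF replicates 2, 3, 5 and 6. let-7c-5p held 51862 to 72129 CPM (median 54257) in the HF libraries, against 59605, 59789, 61025 and 43985 CPM in LF replicates 2, 3, 5 and 6, a difference of 0.04 ± 0.12 (SE). HF replicate 6 stood above the other HF libraries and LF replicate 6 below the other LF libraries. For let-7a-5p, let-7b-5p, let-7d-5p, let-7g-5p, let-7i-5p and miR-98-5p no difference exceeded 0.10 in either direction. The lowest bound of any of the 9 intervals was -0.25 and the highest 0.42, both well inside a 2-fold difference.

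miR-143-3p, the smooth muscle and stromal miRNA that was the most abundant of all, held 130591 to 248428 CPM (median 158418) in the HF libraries, against 124146, 204201, 132199 and 212762 CPM in LF replicates 2, 3, 5 and 6. The difference was -0.02 ± 0.21 (SE), and HF replicate 1 was highest. miR-26a-5p, which acts on fat cell differentiation, differed by 0.05 ± 0.09 (SE) (interval -0.15 to 0.25). miR-21a-5p, raised in many inflamed and fibrotic tissues, differed by -0.12 ± 0.13 (SE) (interval -0.40 to 0.16). For miR-30a-5p the difference was -0.07 ± 0.10 (SE), for miR-10b-5p 0.07 ± 0.10 (SE) and for miR-30d-5p -0.05 ± 0.08 (SE). None of the 10 most abundant miRNAs had an interval that reached a 2-fold difference.

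**Figure D4:**
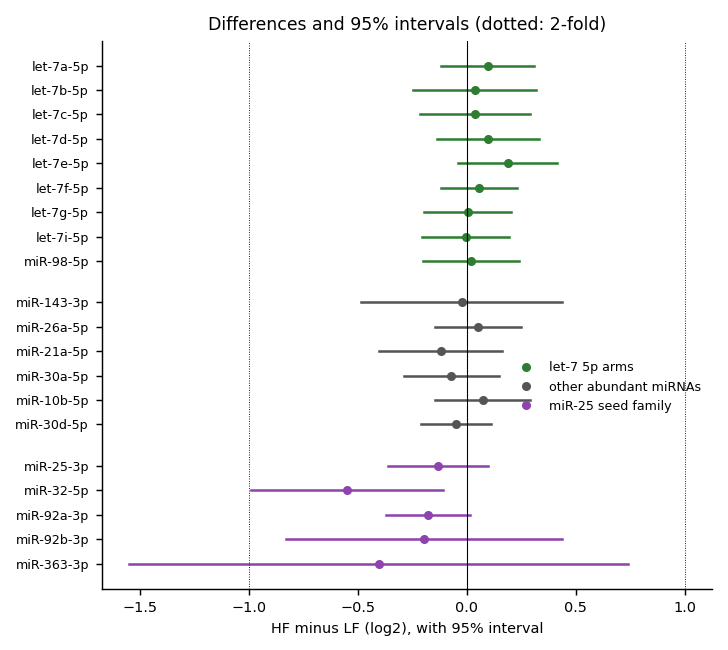
HF minus LF difference (log2, point) with its 95% interval (line) for the let-7 5p strands, the other most abundant miRNAs and the miR-25 seed family; dotted lines mark a 2-fold difference. All let-7 and abundant miRNA intervals contain 0 and stay inside the dotted lines, and in the seed family that of miR-32-5p alone lies wholly below 0.

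Of the adipocyte miRNAs, 5 of 22 had a difference above 0, beside 303 of 604 over all miRNAs, and the median of the list was -0.08. The list holds both strands of some hairpins and several members of the same families, so its members are not independent. Its summed level was 186302 to 226352 CPM in HF and 208682 to 223400 CPM in LF, and the groups overlapped. miR-103-3p, which dampens insulin sensitivity in mice, averaged 13971 ± 1196 CPM in HF and 14771 ± 1420 CPM in LF (SD, n = 6 and 4), a difference of -0.08 ± 0.09 (SE). miR-378a-3p, from an intron of the mitochondrial regulator Ppargc1b, averaged 3541 ± 521 CPM in HF and 4023 ± 1075 CPM in LF (SD, n = 6 and 4), a difference of -0.18 ± 0.16 (SE). Without LF replicate 5 the difference of miR-103-3p was -0.01 and that of miR-378a-3p -0.01, and without LF replicate 2 that of miR-378a-3p was -0.29. A second list held miRNAs reported as changed in obese fat, and 12 of 19 of its tested members lay above 0 with a median of 0.08. miR-34a-5p, a p53 target that rises in obese tissue, differed by 0.16 ± 0.16 (SE), and by 0.04 without LF replicate 3. miR-146b-5p, an inflammation brake that adipocytes express, held 1635 to 4615 CPM (median 3060) in the HF libraries, against 2771, 2425, 2607 and 1812 CPM in LF replicates 2, 3, 5 and 6. HF replicate 1 was the lowest and HF replicate 4 the highest of the 10 libraries, and the difference of 0.37 ± 0.23 (SE) became 0.51 without HF replicate 1 and 0.20 without HF replicate 4. No member of either list had an unadjusted p under 0.05.

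The macrophage and granulocyte list had 0 of 8 differences above 0 and a median of -0.12, none with an unadjusted p under 0.05, and LF replicate 2 stood apart in it. Among all miRNAs 303 of 604 lay above 0. The list summed to 1999 to 2731 CPM in HF and 1936 to 4232 CPM in LF, where the upper LF value is LF replicate 2 and the next LF library, LF replicate 5, held 2234 CPM. miR-142a-5p, found across blood cells, held 407 to 702 CPM (median 577) in the HF libraries, against 1353, 540.5, 371 and 623 CPM in LF replicates 2, 3, 5 and 6. miR-155-5p, induced in activated leukocytes, held 221 to 384 CPM (median 258) in the HF libraries, against 649, 185, 294 and 169 CPM in LF replicates 2, 3, 5 and 6. Without LF replicate 2 the difference of miR-142a-5p changed to 0.15 (with it -0.36), that of miR-155-5p to 0.35 (with it -0.25) and that of the myeloid miR-223-3p to 0.13 (with it -0.06). miR-150-5p, the miRNA of mature lymphocytes, held 1201 to 1869 CPM (median 1736) in HF, against 3366 CPM in LF replicate 2 and 1274 to 1780 CPM in the other LF libraries. The lymphocyte list had 3 of 8 above 0 and a median of -0.04.

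No member of the vascular and stromal lists had an unadjusted p under 0.05. The shares above 0 given here stand beside 303 of 604 over all miRNAs. The endothelial miR-126a-3p averaged 16437 ± 1510 CPM in HF and 17846 ± 3075 CPM in LF (SD, n = 6 and 4), a difference of -0.12 ± 0.11 (SE). The mesenchymal list of miR-199 and miR-214 had 5 of 6 above 0 and a median of 0.14. miR-199a-3p, a miRNA of fibroblasts and other mesenchymal cells, held 4606 to 7063 CPM (median 5132) in the HF libraries, against 4548, 5059, 5004 and 5254 CPM in LF replicates 2, 3, 5 and 6. The lines of miR-199a-3p and miR-199b-3p share 1 mature sequence, so their counts cannot be told apart, and both differed by 0.14. The smooth muscle list had 2 of 4 above 0 and a median of 0.00. The erythroid list had 2 of 7 above 0 and a median of -0.15, with miR-451a, the miRNA of red blood cells, at 898 to 2237 CPM (median 1601) in the HF libraries, against 1441, 1729, 1246 and 1789 CPM in LF replicates 2, 3, 5 and 6.

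Markers of other tissues were spread widely within both groups. The hepatocyte list, led by miR-122-5p, summed to 925 to 3217 CPM in HF and 828 to 2489 CPM in LF. The striated muscle miR-1a-3p held 612 to 3360 CPM (median 1130) in the HF libraries, against 1829, 1881, 1120 and 1150 CPM in LF replicates 2, 3, 5 and 6, highest in HF replicate 1. The kept libraries still held low levels of the epithelial lists, whose members are given with no test because the libraries were chosen on the miR-200 counts and the other epithelial lists were high in the same libraries. The miR-200 list summed to 89.1 to 155 CPM in HF and 100.3 to 292 CPM in LF, with a median difference of -0.38. The miR-183 list summed to 22.1 to 84.4 CPM in HF and 29.9 to 83.5 CPM in LF and the glandular list to 99.6 to 147 CPM in HF and 109 to 249 CPM in LF, with median differences of -0.34 and -0.68. The germ cell and epididymis list had a median of 0.00 and summed to 44.5 to 784 CPM in HF and 50.3 to 291 CPM in LF, and 22 of its 24 members passed the filter. HF replicate 6 held the 784 CPM, and the next HF library held 253 CPM. Without HF replicate 6 the differences of the members named in this text were all below 0. They were -0.85 ± 0.39 for miR-34c-5p, -0.61 ± 0.30 for miR-34b-3p, -1.48 ± 1.27 for miR-465c-3p and -0.71 ± 0.94 for miR-881-3p (SE).

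Imprinted miRNAs of the Dlk1-Dio3 region on chromosome 12, expressed from the maternal chromosome, lay mostly above 0. Of the proximal group around Rtl1, 10 of 14 had a difference above 0 (median 0.19), and of the distal group from miR-379 to miR-410, 27 of 37 (median 0.18), beside 303 of 604 and 0.00 over all miRNAs. The members of each group are cut from a shared transcript and are not independent. Summed levels were 752 to 992 CPM in HF and 647 to 945 CPM in LF for the proximal group and 1289 to 2012 CPM in HF and 1365 to 1648 CPM in LF for the distal group, so the groups of libraries overlapped. One member, miR-434-3p, had an unadjusted p under 0.05. miR-127-3p held 267 to 363 CPM (median 309.7) in the HF libraries, against 281, 225, 362 and 220.2 CPM in LF replicates 2, 3, 5 and 6, with LF replicate 5 among the highest libraries, and its difference was 0.18 ± 0.15 (SE). miR-379-5p, the first of the distal group, differed by 0.20 ± 0.18 (SE) and miR-541-5p by 0.12 ± 0.15 (SE). With 1 library left out at a time miR-127-3p ran from 0.10 to 0.37 (lowest without LF replicate 6, highest without LF replicate 5), miR-379-5p from 0.12 to 0.35 (lowest without HF replicate 4, highest without LF replicate 6) and miR-541-5p from 0.05 to 0.29 (lowest without HF replicate 2, highest without LF replicate 5). With LF replicates 1 and 4 put back the medians were 0.06 for the proximal and 0.12 for the distal group. In the Sfmbt2 cluster, 6 of 12 lay above 0, with a median of 0.01.

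The remaining miRNAs among the 2 most abundant of each list are given as HF minus LF on the log2 scale. Among the adipocyte, immune and blood lists they were 0.06 for miR-125b-5p, -0.09 for miR-146a-5p, 0.02 for miR-181a-5p and -0.15 for both miR-486a-5p and miR-486b-5p, whose counts cannot be told apart. Among the vascular and muscle lists they were -0.04 for miR-126a-5p, 0.03 for miR-145a-3p and 0.02 for miR-133a-3p. The epithelial and glandular members, described with no test, were -0.34 for miR-182-5p, -0.33 for miR-183-5p, -0.32 for miR-204-5p and -1.04 for miR-375-3p. The others were 0.09 for miR-192-5p, -0.05 for miR-128-3p, 0.15 for miR-669c-5p, -0.24 for miR-467e-5p, 0.01 for miR-16-5p and 0.07 for miR-195a-5p.

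Hairpins with both strands tested gave a further description of the same contrast. There were 114 such hairpins, and in 74 (64.9%) the 2 strands lay on the same side of 0.

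Several miRNAs differed most between libraries of the same group. HF replicate 1 held 719.7 CPM of miR-196a-5p and 374 CPM of miR-196b-5p, miRNAs embedded in the Hox gene clusters that pattern the body axis. The other HF libraries held 25.5 to 126 CPM and 19.3 to 53.4 CPM, and the LF libraries 24.5, 48.7, 79.7 and 37.9 CPM and 13.3, 35.9, 15.7 and 18.8 CPM. The difference of miR-196a-5p was 1.80 with HF replicate 1 and 0.18 without it, and that of miR-196b-5p was 2.08 and 0.57. The same library was highest in miR-9-5p (127 CPM, against 23.3 to 45.4 CPM in the other HF libraries) and in miR-143-3p. It was the lowest HF library in miR-504-5p at 23.1 CPM.

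LF replicate 3 had the lowest levels of several miRNAs. miR-504-5p, from an intron of Fgf13, held 23.1 to 163 CPM (median 123) in HF, against 1.11 CPM in LF replicate 3 and 98.6 to 130.2 CPM in the other LF libraries. miR-335-5p, from an intron of the imprinted adipose growth gene Mest, held 855 to 3080 CPM (median 2326) in HF, against 459 CPM in LF replicate 3 and 1599 to 3942 CPM in the other LF libraries. miR-1983 held 27.6 to 91.97 CPM (median 75.7) in HF, against 12.5 CPM in LF replicate 3 and 47.5 to 66.8 CPM in the other LF libraries. HF replicate 6 stood apart in miRNAs of the germ cell and epididymis list. There miR-34c-5p held 114 CPM, against 14.5 to 43.2 CPM in the other HF libraries, and miR-465c-3p held 51.9 CPM, against 0 to 16.4 CPM. LF libraries held 22.2, 55.3, 41.4 and 59.9 CPM of miR-34c-5p and 1.18, 14.2, 16.9 and 17.6 CPM of miR-465c-3p. The causes of these differences were not tested.

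**Figure D5:**
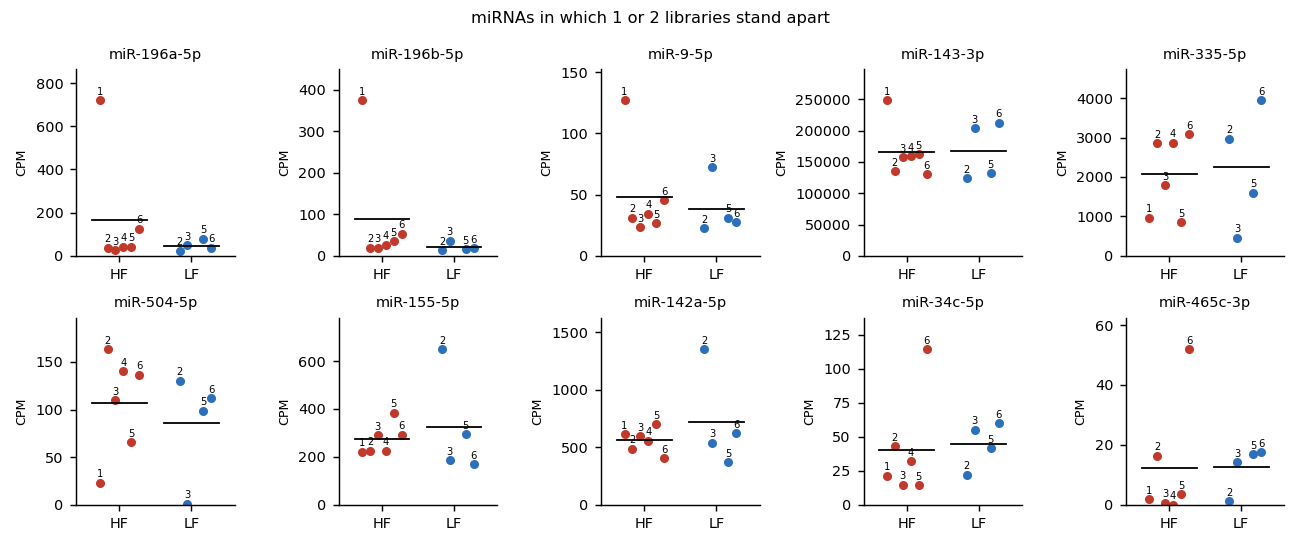
Level (CPM) in each HF and LF library of 10 miRNAs in which 1 or 2 libraries stand apart; points carry replicate numbers and bars are group means. HF replicate 1 stands out in the miR-196 panels, LF replicate 3 is lowest in miR-504-5p and miR-335-5p, LF replicate 2 is highest in miR-155-5p and miR-142a-5p, and HF replicate 6 in miR-34c-5p and miR-465c-3p.

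Putting LF replicates 1 and 4 back changed which miRNAs led the comparison and did not bring any past the threshold. With all 12 libraries 0 of 573 miRNAs (0%) had an adjusted p under 0.05, and the smallest was 0.512. At an unadjusted p under 0.05 there were 42 (7.33%), of which 38 lay lower in HF (6.63%) and 4 higher (0.698%). The miR-200 list then had a median of -5.33, the miR-183 list of -4.12, the glandular list of -4.63 and the germ cell and epididymis list of -1.35. The libraries were left out for their miR-200 counts, so nothing is read from that list or from the lists high in the same libraries. The medians of the obese adipose (-0.10), mesenchymal (-0.28), endothelial (0.13), erythroid (0.13), hepatocyte (-0.57) and Sfmbt2 cluster (-0.51) lists lay on the other side of 0 from their values in the 10 libraries.

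Single miRNAs also moved with the left-out libraries. In the 12-library scale miR-92b-3p, of the miR-25 seed family, differed by -4.16, against -0.20 in the 10 libraries. miR-1247-5p, from an exon of Dio3os, held 96.1 and 109.6 CPM in LF replicates 1 and 4, against 25.9, 40.8, 18.1 and 28.3 CPM in the kept LF libraries, and its difference changed to -1.43 (10 libraries -0.53). miR-196b-5p changed to -1.11 (10 libraries 2.08) and miR-34b-3p, of the germ cell and epididymis list, to -3.45 (10 libraries 0.16). miR-32-5p became -0.34 and miR-434-3p 0.06. let-7f-1-3p was 0.67, let-7e-3p 0.42 and miR-3968 -0.27, each within 0.10 of its value in the 10 libraries. The summed let-7 5p strands differed by 0.02.

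The 6 HFLF libraries of eWAT were set beside the same 10 libraries, on a scale normalised over all 16. HFLF minus HF gave 0 of 673 miRNAs (0%) at an adjusted p under 0.05 (smallest 0.652) and 32 at an unadjusted p under 0.05 (4.75%), of which 5 lay higher in HFLF (0.743%) and 27 lower (4.01%). This contrast and HF minus LF share the HF libraries, so the values are given side by side. miR-32-5p held 15.5 to 25.9 CPM in HFLF, 12.9 to 22.4 CPM in HF and 23.3 to 29.6 CPM in LF, and HFLF overlapped both other groups. miR-6240 held 18.8 to 58 CPM in HFLF, 27.7 to 55.8 CPM in HF and 38.9 to 76.9 CPM in LF. miR-434-3p held 189 to 308 CPM in HFLF, 271 to 375 CPM in HF and 229 to 302 CPM in LF.

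The inflammation brake miR-146b-5p was among the miRNAs with the smallest p in HFLF minus HF. It held 804 to 2438 CPM in HFLF, 1586 to 4595 CPM in HF and 1789 to 2676 CPM in LF. HFLF minus HF was -0.85 ± 0.27 (SE; unadjusted p = 0.00712, adjusted p = 0.652), and HF and HFLF overlapped. miR-130b-5p, from the cluster that restrains Pparg, held 6.88 to 13.9 CPM in HFLF, 13.5 to 23.9 CPM in HF and 9.29 to 27.2 CPM in LF, a difference of -0.76 ± 0.24 (SE) for HFLF minus HF. The germ cell miR-881-3p and miR-465c-3p also lay lower in HFLF, at 0 to 1.16 and 0 to 1.93 CPM. In HF they ran at 0 to 31.3 and 0 to 52.3 CPM, with HF replicate 6 the highest in both, and in LF at 0.869 to 8.52 and 1.14 to 17.3 CPM. The whole germ cell and epididymis list, on the scale of the 18 eWAT libraries, summed to 30.1 to 87.4 CPM in HFLF and 44.1 to 775 CPM in HF. Its part in the result was not tested.

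Whether the HF difference of eWAT departed from that of liver was tested as an interaction, on a scale normalised over 20 libraries. The liver groups were HF replicates 1 to 5 and LF replicates 1, 2, 3, 5 and 6, the liver libraries of these groups that the authors' own log2 table holds. The labels leave unsaid whether same-numbered eWAT and liver libraries come from the same mouse, and the fit treated all 20 as independent. Within a group, same-numbered eWAT and liver libraries correlated in their deviations by -0.28 to 0.10. No miRNA of 674 passed an adjusted p of 0.05 (0%, smallest 0.0581), and 71 had an unadjusted p under 0.05 (10.5%), of which 52 had a higher HF minus LF in eWAT than in liver (7.72%) and 19 a lower one (2.82%). The count past the threshold was 6 without liver LF replicate 5, 3 without liver HF replicate 5 or liver LF replicate 6, 1 without liver HF replicate 4 or liver LF replicate 2, and 0 without any other single library. The smallest p belonged to miR-409-5p, which had no count in any liver HF library, so no fold is given.

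Among miRNAs with counts in all 4 groups, miR-10b-5p held 19270 to 25389 CPM in eWAT HF and 16509 to 24073 CPM in eWAT LF. In liver it held 11.9 to 19.3 CPM in HF and 23 to 41.5 CPM in LF. The eWAT groups overlapped and the liver groups did not, and the eWAT difference minus the liver difference was 0.88 ± 0.21 (SE; unadjusted p = 0.000432, adjusted p = 0.0826). miR-411-5p and miR-127-3p, both of the Dlk1-Dio3 region, gave 1.70 ± 0.44 (SE; unadjusted p = 0.000787, adjusted p = 0.0899) and 1.29 ± 0.34 (SE; unadjusted p = 0.000933, adjusted p = 0.0899). Their liver levels were 2.91 to 8.41 and 3.56 to 7.01 CPM in HF, against 9.22 to 27.2 and 5.93 to 18.6 CPM in LF. miR-203b-3p gave -0.995 ± 0.26 (SE; unadjusted p = 0.000908, adjusted p = 0.0899), with 32.8 to 55.1 CPM in eWAT HF and 43.6 to 65.6 CPM in eWAT LF, and 77.1 to 105 CPM in liver HF and 39.7 to 69.6 CPM in liver LF. miR-32-5p gave -0.80 ± 0.41 (SE; unadjusted p = 0.0615, adjusted p = 0.459) and let-7e-5p 0.70 ± 0.26 (SE; unadjusted p = 0.0139, adjusted p = 0.336).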

How the data were processed

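Small RNA was sequenced from eWAT and liver, and per the labels' protocols 1 ug of total RNA from TRI reagent entered NEXTFLEX Small RNA-seq Kit v3 libraries read on a NovaSeq sequencer. The submitters' processing notes name cutadapt, Bowtie and GRCm38.p6, while none of the sources names a release of the miRNA annotation. The authors deposited raw counts per mature miRNA and hairpin in 2118 lines for 1966 mature miRNAs. Their deposited normalized CPM columns, scaled per library by the authors, were read and not tested. A deposited log2 table of 180 eWAT miRNAs, log2 CPM by the authors, served as an alternative.

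The column letters of the count table were matched to tissue and group through the abbreviations in the labels. Of the 87 miRNAs with several lines the line with the highest total was kept. Counts were tested with edgeR 4.0.16 in R 4.3.3 (TMM, filterByExpr with a minimum count of 10, robust quasi-likelihood fit, Benjamini-Hochberg adjustment, threshold 0.05), and intervals are at 95%. DESeq2 1.42.0 and limma 3.58.1 were alternatives, beside other scalings, filters, libraries and a replicate block. The steps were tested on simulated data. No pair of replicates agreed within sampling noise, with a chi-square per degree of freedom of 95.1 or more.

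The members and lists were chosen with earlier results of these data known. The text names the 10 miRNAs of smallest p in each direction, the 10 most abundant, the let-7 5p strands and the 2 most abundant members of each list. The miR-25 seed family, the miR-132 pair, the miRNAs that vary most between libraries and those named for HFLF or liver were chosen after their values were seen. Intervals and floors cover counting error and the spread between libraries only.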

Additional observations from a re-analysis of the deposited data

Results flagged for a closer look

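A gap test within each group picked out single libraries that lay far from the others of their group. It was run on 222 groups of values. A chance rate of about 1 in 20 assumes normally spread values of items picked without regard to them. Some items here were picked for their spread or a small p, so that rate does not apply. The flags are a description only. HF replicate 1 was highest in miR-196b-5p at 374 CPM (next 53.4), miR-143-3p at 248000 CPM (next 162000), miR-9-5p at 127 CPM (next 45.4), miR-196a-5p at 720 CPM (next 126), the summed smooth muscle list at 254000 CPM (next 166000) and the summed neural list at 475 CPM (next 389). HF replicate 6 was highest in let-7c-5p at 72100 CPM (next 59200), miR-375-3p at 41.9 CPM (next 15.6), miR-34c-5p at 114 CPM (next 43.2), miR-34b-3p at 87.4 CPM (next 25.1), miR-465c-3p at 51.9 CPM (next 16.4), miR-881-3p at 31.1 CPM (next 8.33) and the summed germ cell and epididymis list at 784 CPM (next 253). HF replicate 2 was lowest in miR-30a-5p at 41700 CPM (next 49000), and HF replicate 3 was lowest in miR-669c-5p at 17.7 CPM (next 34.7) and the summed Sfmbt2 cluster list at 86.5 CPM (next 115).

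Among the LF libraries, LF replicate 2 was highest in miR-132-5p at 18.9 CPM (next 10.9) and the summed macrophage and granulocyte list at 4230 CPM (next 2230) and lowest in miR-192-5p at 144 CPM (next 188). LF replicate 3 was highest in miR-216b-5p at 14.3 CPM (next 1.8) and miR-183-5p at 30.6 CPM (next 15.6). LF replicate 6 was highest in miR-126a-5p at 3880 CPM (next 2980), and lowest in let-7c-5p at 44000 CPM (next 59600) and the summed let-7 5p arms list at 234000 CPM (next 287000). It also held the most miR-200a-3p, at 60.8 CPM (next 24.5). The libraries were chosen on miR-200 counts, so nothing is read from that gap. The same holds for the gaps of miR-183-5p and miR-375-3p, members of the other epithelial lists. The causes were not tested.

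The LF libraries left out of the comparison carried signal above the 10 kept libraries, on the scale of the 18 eWAT libraries, where the next value is the highest of those 10. Lists are given where the library held more than 2 times that value. The miR-200 sums restate the reason for leaving these libraries out. LF replicate 1 held the summed epithelial miR-200 list at 16700 CPM (next 290), the summed epithelial miR-183 list at 602 CPM (next 83.6), the summed glandular list at 4270 CPM (next 237), the summed germ cell and epididymis list at 4620 CPM (next 775) and the summed Sfmbt2 cluster list at 312 CPM (next 143). LF replicate 4 held the summed epithelial miR-200 list at 21400 CPM (next 290), the summed epithelial miR-183 list at 3350 CPM (next 83.6) and the summed glandular list at 3670 CPM (next 237). Below that limit, LF replicate 4 also lay above the 10 in the germ cell and epididymis list (1462 CPM, next 775) and in the Sfmbt2 cluster list (262 CPM, next 143). The members of the germ cell and epididymis list did not move together. On the 12-library scale LF replicate 1 held 2623 CPM of miR-34c-5p and 1594 CPM of miR-34b-3p. It held 2.01 CPM of miR-465c-3p and 0.67 CPM of miR-881-3p. LF replicate 4 held 112, 168, 101 and 69.4 CPM of these miRNAs in the same order.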

How the results depend on the processing

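No miRNA passed an adjusted p of 0.05 in eWAT HF minus LF under DESeq2, limma voom, DESeq2 size factors, plain library totals, a mean of at least 10 CPM, summed lines, the authors' log2 values, any single library left out, either or both left-out LF libraries put back, or 16 libraries in 1 fit. Without a filter on low counts 1 of 1191 miRNAs passed, miR-216b-5p (adjusted p = 0.0179 by edgeR), which LF replicate 3 carried. HFLF minus HF gave 0 under each alternative run. The difference between the HF effects of eWAT and liver gave 5 without a filter and 3 with LF replicates 1 and 4 of eWAT put back. It ran from 0 to 6 with single libraries left out and was 0 under the others. The summed let-7 difference ran from 0.00 to 0.10 with single libraries left out. With the replicate block all 3 comparisons gave 0. Same-numbered HF and LF libraries correlated in their deviations by -0.10, -0.07, 0.17 and 0.32, so the numbers are not shown to pair the libraries.

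Of 2033 values recomputed for 90 single miRNAs, 1980 kept their side of the threshold with no change of sign beyond 1 SE, and 52 changed sign by more than 1 SE. Changes of sign within 1 SE count among the 1980. All values that follow are HF minus LF on the log2 scale, and the cause was not tested. With LF replicate 1 put back they were -0.10 for miR-125b-5p, 0.05 for miR-486b-5p and miR-486a-5p, 0.03 for miR-126a-3p, 0.08 for miR-126a-5p, -0.20 for miR-199a-3p and miR-199b-3p, -3.57 for miR-34b-3p, -2.10 for miR-192-5p and -0.53 for miR-669c-5p. With LF replicate 4 put back they were -1.34 for miR-196b-5p, -0.04 for miR-190a-5p, -0.11 for miR-10b-5p, 0.00 for miR-126a-3p, -0.01 for miR-199a-3p and miR-199b-3p, -0.92 for miR-34b-3p, -0.26 for miR-9-5p, -0.32 for miR-669c-5p, -0.94 for miR-196a-5p and -1.19 for miR-881-3p. With both put back they were -1.11 for miR-196b-5p, -0.16 for miR-10b-5p, -0.15 for miR-125b-5p, 0.13 for miR-486b-5p and miR-486a-5p, 0.11 for miR-126a-3p, 0.15 for miR-126a-5p, -0.26 for miR-199a-3p and miR-199b-3p, -3.45 for miR-34b-3p, -1.88 for miR-192-5p, -0.72 for miR-669c-5p, -0.77 for miR-196a-5p, -0.94 for miR-881-3p and 0.06 for miR-378a-3p. With single libraries left out the range was -0.20 to 0.06 for miR-21a-5p, -0.12 to 0.03 for miR-30a-5p, -0.24 to 0.22 for miR-146a-5p, -0.14 to 0.13 for miR-223-3p, -0.45 to 0.09 for miR-150-5p, -0.18 to 0.02 for miR-126a-3p, -0.09 to 0.08 for miR-126a-5p, -0.47 to 0.14 for miR-200b-3p, -0.65 to 0.14 for miR-200a-3p, -0.61 to 0.43 for miR-34b-3p, -0.25 to 0.83 for miR-9-5p, -0.44 to 0.35 for miR-155-5p, -0.32 to 0.41 for miR-142a-3p, -0.56 to 0.15 for miR-142a-5p, -0.70 to 0.49 for miR-363-3p and -0.71 to 0.81 for miR-881-3p. Depth limits the rare miRNAs: the floor of 3 counts was 0.199 to 0.331 CPM.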
